A study of Mus musculus with 13 samples.

Results

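The genes described here encode the clathrin coat, the adaptor complexes AP-1, AP-2 and AP-3, and the accessory proteins that start, bend, cut and uncoat clathrin-coated vesicles. They were taken from a fixed list of 38 symbols, of which 37 had named transcripts of 200 nucleotides or more in the deposited tables, out of 29348 genes with a value in the cell libraries. Hip1, a clathrin and actin linker, is not analysed here. All 37 passed the filter on low values in the cell libraries (a mean of at least 1 FPKM, a fragment density per unit of transcript length and library size, among 12211 genes tested) and 35 passed it in ventricles (among 11729 tested), where Dnm1 and Dnm3 did not. The 13 libraries came from wild-type mice of the FvB strain and differed in cell source and age. Ventricles gave 1 library each at 5 stages, embryonic day (E) 17 and then PN1, PN10, PN28 and PN90, where PN counts days after birth. Cardiomyocytes were sampled at PN30 and PN67, called later below, and as 2 neonatal libraries labelled PN1-2 and PN1. Cardiac fibroblasts were sampled at PN28 and PN60, again called later, and as 2 neonatal libraries labelled PN1-3 and PN1-2. Atria were taken off before every preparation. PN30 and PN67 cardiomyocytes were dissociated by Langendorff perfusion of enzymes through the coronary vessels, whereas neonatal cardiomyocytes were enriched by preplating, so in this cell type stage and isolation cannot be told apart. Fibroblasts were preplated after enzymatic digestion at each stage. Nothing in the labels says that libraries of a group came from separate animals or cultures, so the spread behind each p-value is that between these libraries and may be a technical one. Values of 2 libraries are given below in the order PN30 and PN67 for later cardiomyocytes, PN28 and PN60 for later fibroblasts, and library 1 and library 2, in the order of the labels above, for neonatal cells.

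Clathrin is a triskelion of heavy chains with bound light chains that assembles into a cage around budding membrane. AP-2 links this cage to cargo and to phosphoinositides at the plasma membrane, AP-1 does so at the trans-Golgi network and endosomes, and AP-3 sorts cargo to lysosomes and related organelles. F-BAR and BAR proteins bend the membrane, dynamins cut the neck of the bud by hydrolysing GTP, and synaptojanin and the auxilin-type kinase Gak take the coat off. In heart muscle the same machinery sets how many receptors, transporters and ion channels stand in the surface membrane, and PACSIN proteins also act at caveolae and membrane tubules.

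Several of the transcripts that changed most differ by a short coding exon, though not by that exon alone. Ap2a1-203 has 3449 nucleotides and Ap2a1-202 3301, Ap2b1-201 5625 and Ap2b1-202 5369, and Fnbp1-208 4726 and Fnbp1-210 4680. Exon inclusion below is a split of FPKM between whole transcripts, and the part of their other differences was not tested. Coding exons were taken where internal, at most 99 nucleotides long and of a length divisible by 3. Exons overlapped by an exon with other bounds were left out. Among the named transcripts of the 37 genes, 21 such exons are held by some and skipped by others. Of these 21, 19 exons in 10 genes had enough FPKM for an inclusion value in each library. The 4 exons printed here are those whose inclusion moved by 10 percentage points or more between later and neonatal cardiomyocytes. They were chosen after their values were seen, and the exon values are a description with no test. Exon bases are in capitals and the 15 bases of each neighbouring exon in lower case, 5′ to 3′ along the mRNA, from GENCODE M21 transcripts. The Clta exon lies at chr4:44031400-44031435 on the plus strand, the Ap2a1 exon at chr7:44903462-44903527 on the minus strand, the Ap2b1 exon at chr11:83364795-83364836 on the plus strand and the Fnbp1 exon at chr2:31044882-31044896 on the minus strand, all in GRCm38.

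Clta 36-nt exon: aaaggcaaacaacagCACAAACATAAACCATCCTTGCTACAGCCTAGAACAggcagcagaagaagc
Ap2a1 66-nt exon: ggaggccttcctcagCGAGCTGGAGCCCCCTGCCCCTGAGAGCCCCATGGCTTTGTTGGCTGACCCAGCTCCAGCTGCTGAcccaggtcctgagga
Ap2b1 42-nt exon: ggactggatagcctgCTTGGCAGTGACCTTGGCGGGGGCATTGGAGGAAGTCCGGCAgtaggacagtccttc
Fnbp1 15-nt exon: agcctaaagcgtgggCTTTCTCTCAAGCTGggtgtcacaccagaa

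Forms of clathrin light chain A and of the AP-2 large subunits with short inserts are known from brain. The Clta exon adds 12 codons, the Ap2a1 exon 22, the Ap2b1 exon 14 and the Fnbp1 exon 5.

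Each library listed between 19537 and 23492 transcripts at 1 FPKM or more. Fragment totals are not given in the files used here, so the depth is unknown. Deposited coverage divided by FPKM, a value that grows with sequencing depth, ran from 19.5 to 32.8 over the 13 libraries, and the median half-width of the deposited confidence interval of a member transcript from 5.97% to 7.84% of its FPKM. All 8 cardiomyocyte markers were measured in cells. Their summed level was 41160 and 40200 FPKM in later and 12030 and 11160 FPKM in neonatal cardiomyocytes, against 24.4 and 32.3 FPKM in later and 1261 and 1074 FPKM in neonatal fibroblasts. The 7 measured fibroblast markers of 8 listed summed to 221 and 189 FPKM in later and 230.0 and 204 FPKM in neonatal cardiomyocytes, against 1529 and 1691 FPKM in later and 2160.0 and 2088 FPKM in neonatal fibroblasts. Each sum was higher in all 4 libraries of its own cell type than in the other type's 4 libraries, and no marker was at 0 in a cell library. Neonatal fibroblasts held cardiomyocyte markers at a median of 10.5% and 8.88% of their mean level in neonatal cardiomyocytes, against 0.0547% and 0.0558% for later fibroblasts relative to later cardiomyocytes. Fibroblast markers in cardiomyocytes stood at a median of 16.5% and 11.3% of the fibroblast level at the later ages and of 7.78% and 7.51% in neonates.

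In cardiomyocytes, Pacsin3, Pacsin2, Ap1b1, Synj2, Epn1, Ap1m1, Fnbp1, Dnm1, Itsn1, Ap2a1 and Dnm3 rose with age, and Arf6, Itsn2, Sh3gl1, Dab2, Ap3s1, Picalm, Cltc, Clta, Snx9, Gak, Fcho2 and Ap1g1 fell. These were 11 and 12 of the 37 genes, against 37.2% of all tested genes called higher and 29.9% called lower, and 14 did not pass the test (adjusted p below 0.05). The median log2 change of the 37 was 0.095, beside 0.105 over all tested genes, and single values ran from -1.76 to 2.65. Membrane-bending proteins split into 3 higher and 3 lower of 7, AP-1 subunits into 2 higher and 1 lower of 3, adaptors into 1 higher and 2 lower of 5, and the clathrin chains had 2 lower and 0 higher of 3, with Clta higher where its LOWDATA transcript was left out. The count of higher genes was 7 without the PN67 cardiomyocyte library, without either neonatal cardiomyocyte library, or without either neonatal fibroblast library. With FPKM as deposited it was 6, on a scale where the median of all tested genes shifts to -0.19 and the share of calls that are higher to 40.8%, against 55.5% here.

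Markers of other cells moved with this comparison. The 6 endothelial markers summed to 263 and 267 FPKM in later and 979 and 1174 FPKM in neonatal cardiomyocytes, with 1 called higher and 5 lower. The 6 macrophage and leukocyte markers summed to 177 and 192 FPKM in later and 39.1 and 54.9 FPKM in neonatal cardiomyocytes, with 3 called higher and 0 lower. The 3 measured erythroid markers summed to 1103 and 713 FPKM in later and 15370 and 20450 FPKM in neonatal cardiomyocytes, with 3 lower. Smooth muscle and pericyte markers summed to 159 and 170 FPKM in later and 76 and 88.8 FPKM in neonatal cardiomyocytes (2 of 5 higher and 1 lower), and epicardial markers to 16.2 and 19 FPKM in later and 35.3 and 24.3 FPKM in neonatal cardiomyocytes (2 of 4 lower). All 8 cardiomyocyte markers rose, and of the 7 fibroblast markers 4 rose and 3 fell. Their part in the changes of the clathrin pathway genes was not tested. In bulk RNA such as this, fewer cells of a type and less RNA per cell cannot be told apart.

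In fibroblasts fewer of the genes passed the test. Cltb, Picalm, Dab2, Snx9, Dnm3, Synj1 and Ap1m1 rose with age and Ap2a2 fell, which is 7 and 1 of 37, against 19.7% of all tested genes called higher and 20.9% called lower. The median log2 change of the 37 was 0.17, beside -0.02 over all tested genes. Removing a neonatal fibroblast library, library 1 or library 2, left 3 higher, and FPKM as deposited gave 3 higher and 9 lower, where the median of all tested genes shifts to -0.30 and the share of all calls that are higher to 24.0%, against 48.6% here. The lower count was 0 without any of the 4 cardiomyocyte libraries or the 2 neonatal fibroblast libraries, 2 without PN60 fibroblasts and 4 without PN28 fibroblasts. All 6 macrophage and leukocyte markers rose in these cells, with sums of 631 and 515 FPKM in later and 57.7 and 110.5 FPKM in neonatal fibroblasts, and all 8 cardiomyocyte markers fell. The 4 epicardial markers all fell too, with sums of 5.96 and 10.1 FPKM in later and 28.3 and 33.1 FPKM in neonatal fibroblasts, as did 4 of 6 endothelial markers, with sums of 287 and 258 FPKM in later and 398 and 454 FPKM in neonatal fibroblasts. Of 5 smooth muscle and pericyte markers 3 rose, with sums of 73.8 and 121.5 FPKM in later and 52.8 and 38.6 FPKM in neonatal fibroblasts. Of the 7 fibroblast markers 2 rose and 2 fell, and of the 3 erythroid markers 0 were called. Their part in these changes was not tested. The change in cardiomyocytes and the change in fibroblasts were both called for 5 genes, 13.5% of the 37, beside 27.9% of all tested genes. Ap1m1 and Dnm3 rose in both, and Picalm, Dab2 and Snx9 fell in cardiomyocytes and rose in fibroblasts. Called in the same direction were thus 5.41% of the 37, beside 15.6% of all tested genes, and in opposite directions 8.11%, beside 12.4%. The Picalm rise in fibroblasts holds for its named transcript only. It was -0.01 and not called once deposited transcripts without a GENCODE M21 name were added by position.

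The test of the difference between the cell types in their change with age called 6 genes higher and 13 lower in cardiomyocytes than in fibroblasts, against 32.2% and 26.3% of all tested genes. Higher were Pacsin3, Epn1, Pacsin2, Ap1b1, Synj2 and Fnbp1. Lower were Picalm, Dab2, Cltb, Arf6, Itsn2, Cltc, Sh3gl1, Snx9, Gak, Ap3s1, Ap2b1, Clta and Ap1g1. Calls near the threshold rested on single libraries. Clta (-0.64) was not called without any of the 4 cardiomyocyte or 2 neonatal fibroblast libraries (-0.72 to -0.51), and it turned round to 0.98 (adjusted p = 0.00762 by limma) where transcripts that Cufflinks gave the status LOWDATA were left out of the sum. The call was also lost for Fnbp1 (0.53) without any library but PN60 fibroblasts (0.40 to 0.60), Ap1g1 (-0.57) without PN67 cardiomyocytes, either neonatal cardiomyocyte library or neonatal fibroblast library 2 (-0.55 to -0.46), and Gak (-1.01) without PN30 cardiomyocytes, neonatal cardiomyocyte library 2 or neonatal fibroblast library 2 (-0.97 to -0.78).

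**Figure D1:**
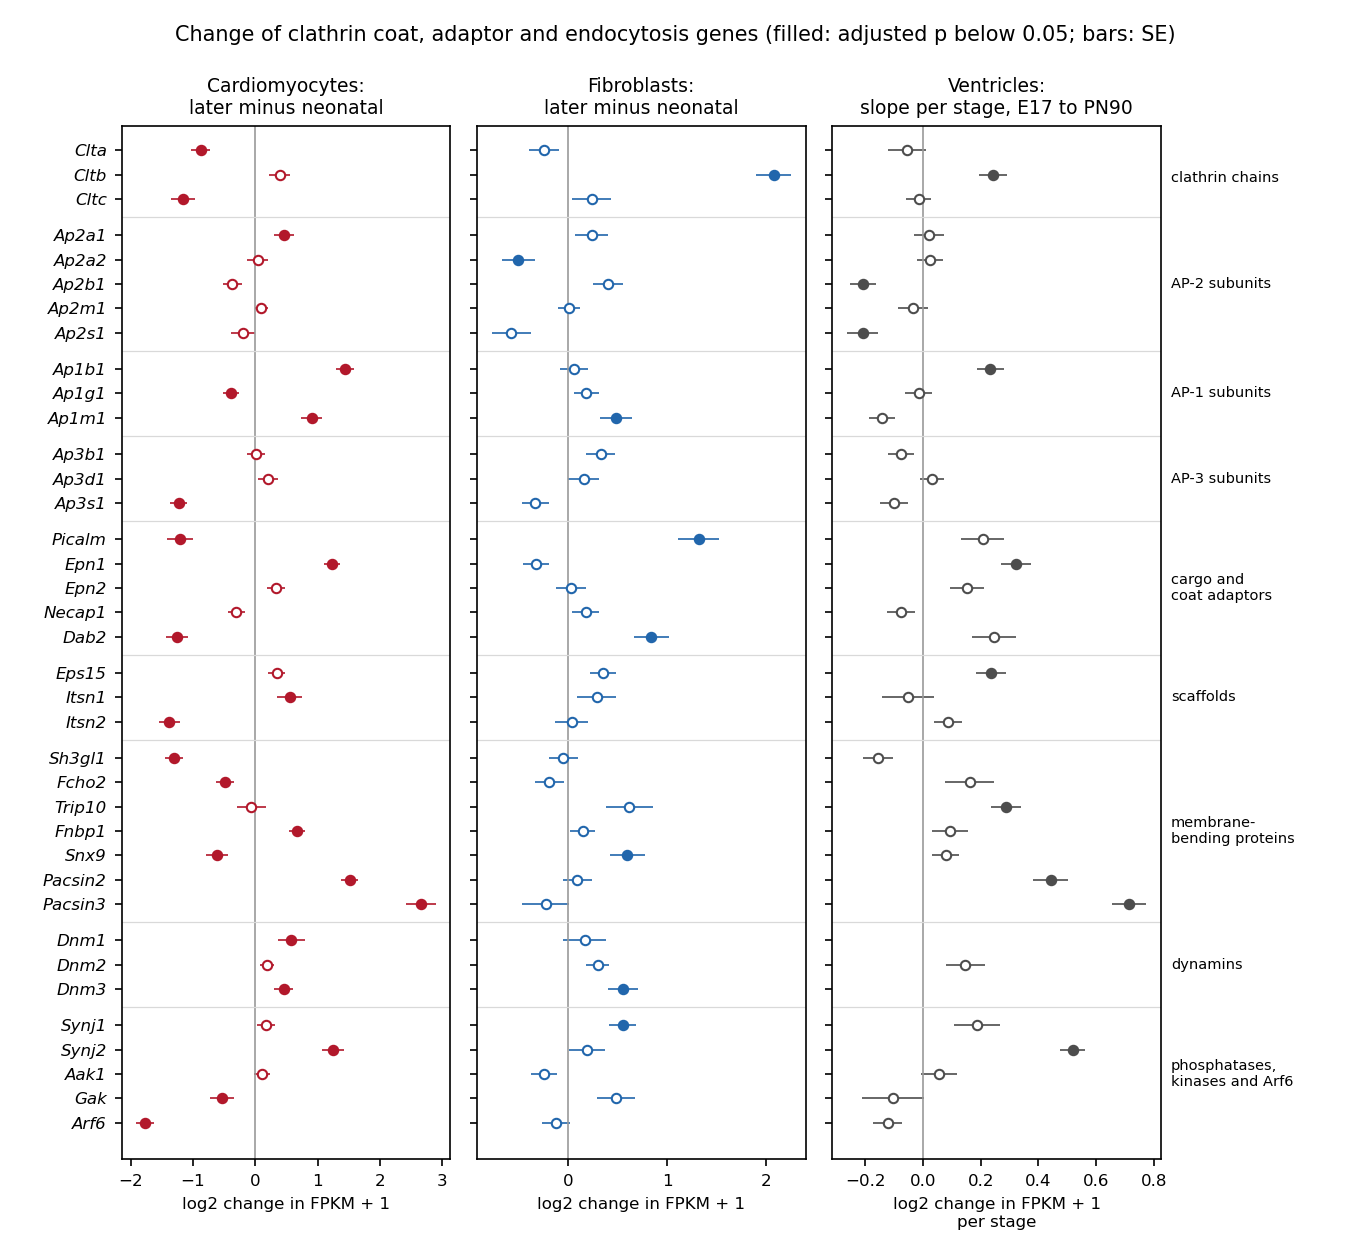
Log2 change of 37 clathrin pathway genes (log2 of FPKM + 1) in cardiomyocytes (later minus neonatal, 2 libraries each), in fibroblasts (the same) and as the slope per stage over 5 ventricle libraries. Points are fitted values and bars their standard errors, filled points have an adjusted p below 0.05, the horizontal axes differ between panels, and Pacsin3 lies farthest to the right in cardiomyocytes (2.65) and ventricles (0.71 per stage), while Cltb does so in fibroblasts (2.07).

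The clathrin heavy chain Cltc (chr11:86507853-86571067 in mm9, the build of the deposited coordinates) stood at 26.3 and 19.4 FPKM in later and 44.6 and 60.4 FPKM in neonatal cardiomyocytes, and at 72.4 and 62.2 FPKM in later and 54.5 and 59.3 FPKM in neonatal fibroblasts. The highest later cardiomyocyte library lay below the lowest of the other 6 libraries. Its log2 change (of FPKM + 1, as for all gene values below) was -1.16 ± 0.20 (SE, adjusted p = 0.0012 by limma) in cardiomyocytes and 0.23, adjusted p = 0.368, in fibroblasts. A deposited Cltc transcript with an identifier that GENCODE M21 lacks held 52.5 and 58% of the FPKM at the locus in later and 45.5 and 35.8% in neonatal cardiomyocytes. With it added, the cardiomyocyte change was -0.78 (adjusted p = 0.00149). The summed named FPKM also mixes transcripts of unlike length. With LOWDATA transcripts used, Cltc-201 (6163 nucleotides) made up 24.7 and 29.8% of it in later and 65.2 and 59.5% in neonatal cardiomyocytes. Cltc-203 (898 nucleotides) made up 37.7 and 23.3% in later and 0 and 9.3% in neonatal cardiomyocytes. The 5 ventricle libraries, from E17 to PN90, had 48, 47.8, 49.4, 47.8 and 45.4 FPKM of Cltc, a flat series with a slope of -0.01, adjusted p = 0.801. Of this sum Cltc-203 made up 27.1, 36, 33.4, 37.9 and 37.8%, and Cltc-201 41.2, 36.8, 45, 35.3 and 36.1%.

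Light chain A, Clta (chr4:44017324-44045718), had 58.3 and 60.7 FPKM in later and 102 and 119 FPKM in neonatal cardiomyocytes. Both later libraries lay below both neonatal ones, a log2 change of -0.88 ± 0.15 (SE, adjusted p = 0.00129 by limma). Fibroblasts had 142 and 109 FPKM of Clta at the later ages and 144 and 151 FPKM as neonates, groups that did not overlap but whose difference did not pass the test (-0.24, adjusted p = 0.232). This direction rests on how Clta is summed. Its transcript Clta-206 has the deposited status LOWDATA and held 56 and 57.5% of Clta FPKM in later and 86.6 and 90.6% in neonatal cardiomyocytes. Without it the sum of the other transcripts turned round, to a change of 0.995 (adjusted p = 0.000978) in cardiomyocytes and 0.98 (adjusted p = 0.000735) between later cardiomyocytes and later fibroblasts, and the difference of the changes turned round as well, to 0.98 (adjusted p = 0.00762). The ventricle series of Clta was 106, 119, 86.1, 84.8 and 104 FPKM, with no trend that passed the test (-0.06, adjusted p = 0.542).

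Light chain B, Cltb (chr13:54693762-54712705), behaved differently in the 2 cell types. Later fibroblasts had 116 and 164 FPKM and neonatal fibroblasts 34.3 and 29.9 FPKM. Later cardiomyocytes had 44.3 and 47.5 FPKM and neonatal cardiomyocytes 34.2 and 35.3 FPKM. PN28 and PN60 fibroblasts stood apart from the other 6 libraries, which lay between 29.9 and 47.5 FPKM. The log2 change was 2.07 ± 0.17 (SE, adjusted p = 0.000128 by limma) in fibroblasts and 0.39, adjusted p = 0.0807, in cardiomyocytes, and the difference of the changes was -1.68 ± 0.25 (SE, adjusted p = 0.000883 by limma). The share of Cltb among the light chains, on the FPKM scale, was 43.2 and 43.9% in later and 25.1 and 22.9% in neonatal cardiomyocytes, and 44.9 and 60.2% in later and 19.2 and 16.6% in neonatal fibroblasts. The share was higher at the later ages in each cell type, a direction that turned round in cardiomyocytes without the LOWDATA transcript Clta-206, to 63.3 and 64.8% in later and 71.4 and 75.9% in neonatal cells, and held in fibroblasts, at 89.3 and 93.6% in later and 75 and 68.9% in neonatal cells. Ventricles had 16.8, 18.9, 22.4, 31.4 and 31.2 FPKM of Cltb from E17 to PN90, higher in the last 3 stages than in the first 2. The slope was 0.24 ± 0.05 (SE, adjusted p = 0.0135 by limma) and lost its call without E17 (0.25) or PN1 (0.23), and with FPKM as deposited (0.12). All 3 clathrin chains were lower in later cardiomyocytes than in later fibroblasts, by log2 differences of -1.57 for Cltb, -1.53 for Cltc and -1.05 for Clta (adjusted p at most 0.00033), of which the Clta value was 0.98 and called without LOWDATA transcripts, while none was called between the neonatal cells.

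**Figure D2:**
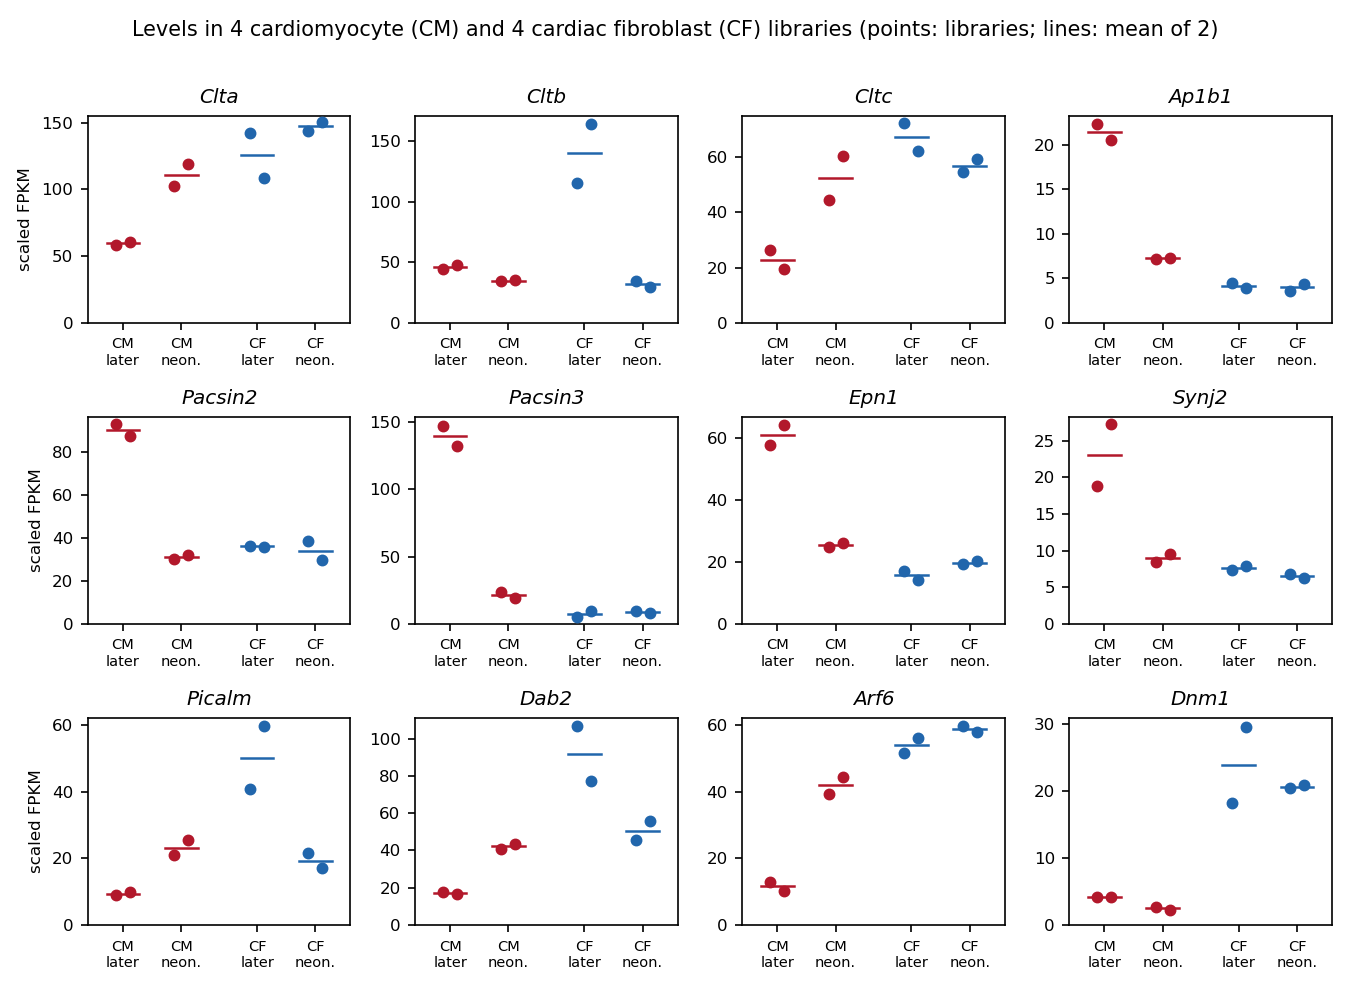
FPKM, scaled by the median of ratios over the 8 cell libraries, of 12 clathrin pathway genes in later and neonatal cardiomyocytes (CM) and later and neonatal cardiac fibroblasts (CF). Each point is a library and each line the mean of 2. Pacsin3 reaches 147 and 132 FPKM in later cardiomyocytes and stays at 24.0 FPKM or less in the other 6 libraries, and Cltb stands highest in later fibroblasts (116 and 164 FPKM).

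AP-2 had 1 of its 5 subunits called in cardiomyocytes, Ap2a1, and 1 in fibroblasts, Ap2a2. These are the alternative alpha subunits, the large subunits that bind phosphoinositides and accessory proteins. Ap2a1 (chr7:52155743-52184866) had 27.6 and 25 FPKM in later and 18.9 and 18.7 FPKM in neonatal cardiomyocytes, groups that did not overlap. Its change was 0.46 ± 0.17 (SE, adjusted p = 0.0412 by limma). The call was lost without any of the 4 cardiomyocyte or 2 neonatal fibroblast libraries (values from 0.42 to 0.56), and with FPKM as deposited the change was 0.11. Fibroblasts had 23.5 and 17.1 FPKM in later and 18.1 and 15.8 FPKM in neonatal cells. Ap2a2 had 18.2 and 19.1 FPKM in later and 17.2 and 18.99 FPKM in neonatal cardiomyocytes, which overlapped. In fibroblasts it had 16.9 and 23.3 FPKM at the later ages and 30.3 and 26.9 FPKM as neonates, with both later values lower. The fibroblast change was -0.51 ± 0.17 (SE, adjusted p = 0.0461 by limma), lost without any of 7 libraries (all but PN60 fibroblasts) at values from -0.60 to -0.26.

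Ap2b1, the beta subunit that binds clathrin, had 13.9 and 12.3 FPKM in later and 16.2 and 18.2 FPKM in neonatal cardiomyocytes. Later and neonatal values did not overlap, but the change of -0.37, adjusted p = 0.0606, did not pass the test. In fibroblasts Ap2b1 had 25.5 and 21.03 FPKM at the later ages and 18.4 and 16.2 FPKM as neonates, a change in the other direction (0.40, adjusted p = 0.0677) that did not pass either, and the difference of the changes did (-0.77 ± 0.21 (SE, adjusted p = 0.0162 by limma)). That call was lost without PN67 cardiomyocytes (-0.67), neonatal cardiomyocyte library 2 (-0.67) or neonatal fibroblast library 2 (-0.68). Ap2m1, the mu subunit that reads tyrosine-based sorting signals, had the highest level of the complex. It stood at 109 and 104 FPKM in later and 97.4 and 102 FPKM in neonatal cardiomyocytes, and at 119 and 105 FPKM in later and 111 and 112 FPKM in neonatal fibroblasts, so that all 8 libraries lay between 97.4 and 119 FPKM. With libraries brought to equal sums after mitochondrial genes were removed, its change was -0.37 in cardiomyocytes and -0.34 in fibroblasts, both called, against 0.10 and 0.01 here. Ap2s1, the small sigma subunit, had 56.2 and 49.4 FPKM in later and 59.3 and 62.04 FPKM in neonatal cardiomyocytes and 39.6 and 25.2 FPKM in later and 47.6 and 47.5 FPKM in neonatal fibroblasts. Its changes of -0.20 and -0.57 did not pass the test, and it was higher in later cardiomyocytes than in later fibroblasts by 0.72 ± 0.20 (SE, adjusted p = 0.0108 by limma). Without PN30 cardiomyocytes that difference was 0.65 and not called, and without PN60 fibroblasts it was 0.38. From E17 to PN90 ventricles, Ap2b1 stood at 25.5, 23.7, 21.6, 16.3 and 14.3 FPKM and fell with a slope of -0.21 ± 0.04 (SE, adjusted p = 0.0169 by limma). Ap2s1 stood at 24.4, 25.97, 18.6, 14.9 and 14.9 FPKM and fell with -0.21 ± 0.05 (SE, adjusted p = 0.0288 by limma). Both were lowest at PN28 and PN90. Each of the 2 calls was lost without E17, PN1, PN28 or PN90, at slopes from -0.26 to -0.18. Ap2a1, Ap2a2 and Ap2m1 stood between 6.43 and 71.5 FPKM there and had slopes from -0.035 to 0.025, none called.

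AP-1, the adaptor of the trans-Golgi network and endosomes, rose in part in cardiomyocytes. Its beta subunit Ap1b1 (chr11:4886827-4942732) had 22.3 and 20.6 FPKM in later and 7.21 and 7.30 FPKM in neonatal cardiomyocytes, against 4.42 and 3.94 FPKM in later and 3.59 and 4.42 FPKM in neonatal fibroblasts. Each later cardiomyocyte library was at 20.6 FPKM or more and each of the other 6 libraries at 7.30 FPKM or less. The change was 1.44 ± 0.14 (SE, adjusted p = 7.82e-05 by limma) in cardiomyocytes and 0.05, adjusted p = 0.784, in fibroblasts, with a difference of 1.39 ± 0.20 (SE, adjusted p = 0.000818 by limma). These values cover named transcripts. A deposited transcript without a GENCODE M21 name held 38.4 and 38.9% of the FPKM at the locus in later and 21.2 and 13.7% in neonatal cardiomyocytes. In fibroblasts it held 4 and 0.6% at the later ages and 6.4 and 3.7% in neonates. Both calls were kept with it added. In ventricles, Ap1b1 stood at 18.5, 19.03, 26.6, 29.6 and 34.4 FPKM from E17 to PN90, rising at each stage with a slope of 0.23 ± 0.05 (SE, adjusted p = 0.0135 by limma). That slope lost its call without E17 (0.26) or PN90 (0.24) and was 0.11 with FPKM as deposited. Ap1m1, the mu subunit, rose in cardiomyocytes (0.90 ± 0.16 (SE, adjusted p = 0.00175 by limma)), and Ap1g1, the gamma subunit, fell (-0.39 ± 0.13 (SE, adjusted p = 0.0263 by limma)). Ap1m1 was called higher in fibroblasts too (0.48 ± 0.16 (SE, adjusted p = 0.0496 by limma)), a call lost without any of 7 libraries (all but PN60 fibroblasts, values from 0.28 to 0.51). The Ap1g1 call was lost without PN67 cardiomyocytes (-0.27) or either neonatal cardiomyocyte library (-0.38 and -0.37).

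AP-3, which serves lysosomes and related organelles, had 1 called subunit of 3. Ap3s1, the small sigma subunit, had 9.18 and 9.38 FPKM in later and 22.1 and 24.2 FPKM in neonatal cardiomyocytes, and 37.4 and 30.3 FPKM in later and 41.96 and 43.4 FPKM in neonatal fibroblasts. The later cardiomyocyte values were lower than those of the other 6 cell libraries, and the change was -1.23 ± 0.14 (SE, adjusted p = 0.000144 by limma), against -0.33, adjusted p = 0.0897, in fibroblasts. It was lower in neonatal cardiomyocytes than in neonatal fibroblasts as well, with a difference of -0.86 ± 0.14 (SE, adjusted p = 0.00215 by limma). Ap3b1 and Ap3d1, the large subunits, had changes of 0.01 and 0.20 in cardiomyocytes and 0.33 and 0.15 in fibroblasts, none called. With mitochondrial genes removed and equal sums, Ap3b1 in cardiomyocytes was at -0.42 and called. All 3 AP-3 subunits were lower in later cardiomyocytes than in later fibroblasts (-1.75, -0.43 and -0.43 for Ap3s1, Ap3b1 and Ap3d1). The Ap3b1 call was lost without PN30 cardiomyocytes, PN28 fibroblasts or either neonatal cardiomyocyte library (-0.42 to -0.33), and the Ap3d1 call without any library but PN60 fibroblasts (-0.43 to -0.25), without which it was -0.65.

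The adaptors Picalm and Dab2 had opposite called changes in the cell types. Picalm (chr7:97278742-97357442), which brings clathrin to the membrane and retrieves SNARE proteins, had 9.07 and 9.81 FPKM in later and 20.9 and 25.6 FPKM in neonatal cardiomyocytes. Later fibroblasts had 40.8 and 59.7 FPKM of Picalm and neonatal fibroblasts 21.7 and 17.1 FPKM. It was lowest in later cardiomyocytes and highest in later fibroblasts, with no overlap among the 4 groups other than between the neonatal cells. The changes were -1.21 ± 0.21 (SE, adjusted p = 0.0014 by limma) in cardiomyocytes and 1.32 ± 0.21 (SE, adjusted p = 0.00235 by limma) in fibroblasts, and their difference was -2.53 ± 0.30 (SE, adjusted p = 0.000311 by limma). These values cover 1 named transcript. A deposited transcript without a M21 name held 72.8 and 72.9% of the FPKM at the locus in later and 66.2 and 67.7% in neonatal cardiomyocytes, and 53.7 and 46.8% in later and 56.7 and 54.8% in neonatal fibroblasts. With it and a second unnamed transcript added by position, the fibroblast change was -0.01 (adjusted p = 0.966), not called, and the difference of the changes -1.19 (adjusted p = 0.00302). Dab2, a cargo adaptor, had 17.6 and 16.5 FPKM in later and 40.8 and 43.5 FPKM in neonatal cardiomyocytes, and 107 and 76.99 FPKM in later and 45.5 and 55.5 FPKM in neonatal fibroblasts. It was lower in later than in neonatal cardiomyocytes and higher in later than in neonatal fibroblasts, without overlap. The changes were -1.26 ± 0.18 (SE, adjusted p = 0.000477 by limma) and 0.84 ± 0.18 (SE, adjusted p = 0.00787 by limma), with a difference of -2.09 ± 0.25 (SE, adjusted p = 0.000337 by limma). The fibroblast call was lost without neonatal fibroblast library 1 (0.69).

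Epn1, an epsin that binds ubiquitinated cargo and bends membrane, went the other way. It had 57.99 and 64.4 FPKM in later and 24.8 and 26.1 FPKM in neonatal cardiomyocytes, against 16.9 and 14.3 FPKM in later and 19.4 and 20.3 FPKM in neonatal fibroblasts. The later cardiomyocyte libraries stood above the other 6. Its change in cardiomyocytes was 1.23 ± 0.13 (SE, adjusted p = 0.000112 by limma) and in fibroblasts -0.33, adjusted p = 0.0816, with a difference of 1.56 ± 0.18 (SE, adjusted p = 0.000323 by limma). These values cover named transcripts. A transcript without a M21 name held 35.5 and 35.9% of the FPKM at the locus in later and 38.6 and 35.9% in neonatal cardiomyocytes. In fibroblasts it held 40.8 and 44.5% at the later ages and 35.5 and 37.9% in neonates. Both calls were kept with it added. Ventricles had 10.8, 12.2, 19.5, 23.2 and 25.6 FPKM of Epn1 from E17 to PN90, higher at each stage than at the one before, and the slope was 0.32 ± 0.05 (SE, adjusted p = 0.00805 by limma). The slope was not called without E17 (0.32). The related Epn2 had a log2 change of 0.33 and Necap1, an AP-2 partner, of -0.30 in cardiomyocytes, and neither was called.

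Of the scaffolds, Itsn2, an intersectin that ties the coat to actin regulators, had 3.19 and 4.22 FPKM in later and 9.89 and 12.6 FPKM in neonatal cardiomyocytes and 10.2 and 10.2 FPKM in later and 10.1 and 9.83 FPKM in neonatal fibroblasts. The later cardiomyocyte libraries were below the other 6, a change of -1.38 ± 0.17 (SE, adjusted p = 0.000209 by limma). An unnamed transcript at the locus held 62.9 and 49% of its FPKM in later and 29.9 and 23.9% in neonatal cardiomyocytes, and with it the change was -0.78 (adjusted p = 0.00107). Its paralogue Itsn1 was called higher in cardiomyocytes (0.55 ± 0.20 (SE, adjusted p = 0.0379 by limma)), a call lost without any of the 4 cardiomyocyte or 2 neonatal fibroblast libraries (0.47 to 0.65) and at 0.21 with FPKM as deposited. Eps15, the EH-domain scaffold of the coat rim, was not called in either cell type (0.34 in cardiomyocytes and 0.35 in fibroblasts) and rose across ventricle stages (0.23 ± 0.05 (SE, adjusted p = 0.0188 by limma)), a slope lost without E17, PN1, PN28 or PN90 (0.20 to 0.28).

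The membrane-bending PACSIN proteins had the largest increases in cardiomyocytes among the 37 genes. Pacsin3 (chr2:91096111-91104836), the muscle-enriched member of this F-BAR family, had 147 and 132 FPKM in later and 24.02 and 18.96 FPKM in neonatal cardiomyocytes, against 5.51 and 9.70 FPKM in later and 9.28 and 8.28 FPKM in neonatal fibroblasts. It rose to 132 FPKM or more in both later cardiomyocyte libraries, with no overlap with any other cell library. The change was 2.65 ± 0.24 (SE, adjusted p = 5.15e-05 by limma) in cardiomyocytes, 6.28-fold on the FPKM + 1 scale, and -0.23, adjusted p = 0.473, in fibroblasts, with a difference of 2.88 ± 0.33 (SE, adjusted p = 0.000296 by limma). Pacsin3 was already higher in neonatal cardiomyocytes than in neonatal fibroblasts (1.19 ± 0.24 (SE, adjusted p = 0.00576 by limma)), a call lost without neonatal cardiomyocyte library 1 (1.02). Ventricles had 25.5, 39.2, 80.03, 131 and 173 FPKM of Pacsin3 from E17 to PN90. The series rose at each stage, with the steepest slope of the 35 genes at 0.71 ± 0.06 (SE, adjusted p = 0.00436 by limma).

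Pacsin2 (chr15:83206037-83295036), the broadly expressed member of the family, had 93.2 and 87.3 FPKM in later and 30.2 and 31.9 FPKM in neonatal cardiomyocytes and 36.4 and 35.6 FPKM in later and 38.4 and 29.6 FPKM in neonatal fibroblasts. It was high in the 2 later cardiomyocyte libraries and at 38.4 FPKM or less in the other 6 cell libraries. The change was 1.51 ± 0.14 (SE, adjusted p = 6.79e-05 by limma) in cardiomyocytes and 0.09, adjusted p = 0.637, in fibroblasts, with a difference of 1.42 ± 0.20 (SE, adjusted p = 0.000795 by limma). Across ventricles Pacsin2 stood at 34.5, 44.5, 60.3, 105 and 106 FPKM, rising up to PN28 and level after it, with a slope of 0.44 ± 0.06 (SE, adjusted p = 0.00541 by limma). Pacsin3 made up 61.2 and 60.2% of the summed FPKM of both genes in later and 44.3 and 37.3% in neonatal cardiomyocytes. In fibroblasts it was 13.1 and 21.4% at the later ages and 19.5 and 21.9% in neonates.

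Sh3gl1, endophilin A2, which senses and makes curved necks, had 12.7 and 10.6 FPKM in later and 28.2 and 32.2 FPKM in neonatal cardiomyocytes and 48.05 and 52.9 FPKM in later and 56.8 and 48.05 FPKM in neonatal fibroblasts. The 4 cardiomyocyte libraries lay below the 4 fibroblast libraries, and the later ones lowest. The change was -1.31 ± 0.15 (SE, adjusted p = 0.000164 by limma) in cardiomyocytes and -0.05, adjusted p = 0.814, in fibroblasts. Between neonatal cells the difference was -0.77 ± 0.15 (SE, adjusted p = 0.0052 by limma), lost without neonatal cardiomyocyte library 1 (-0.69). Snx9, a BAR protein that recruits dynamin, had 14.3 and 12.98 FPKM in later and 19.8 and 23 FPKM in neonatal cardiomyocytes and 54.1 and 48.5 FPKM in later and 39.6 and 28.4 FPKM in neonatal fibroblasts. Later values were lower in cardiomyocytes and higher in fibroblasts, without overlap. The changes were -0.61 ± 0.18 (SE, adjusted p = 0.0165 by limma) and 0.60 ± 0.18 (SE, adjusted p = 0.0308 by limma), with a difference of -1.21 ± 0.25 (SE, adjusted p = 0.00465 by limma). The cardiomyocyte call was lost without PN67 cardiomyocytes (-0.52) or neonatal cardiomyocyte library 2 (-0.49). The fibroblast call was lost without PN28 fibroblasts (0.54), neonatal fibroblast library 2 (0.35) or either neonatal cardiomyocyte library (0.59 each).

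Trip10, the F-BAR protein CIP4 that links membranes to actin polymerisation, had 15.9 and 20.8 FPKM in later and 17.01 and 21.4 FPKM in neonatal cardiomyocytes for its 1 named transcript, which overlapped, and 41.4 and 64.99 FPKM in later and 36.2 and 30.97 FPKM in neonatal fibroblasts. Its cardiomyocyte change of -0.06 was not called. An unnamed transcript at the locus (chr17:57388874-57402846) held 69.4 and 69.6% of the FPKM there in later and 38.8 and 35.9% in neonatal cardiomyocytes, and with it the change was 0.95 (adjusted p = 0.00909). Neonatal cardiomyocytes were below neonatal fibroblasts in the named transcript (-0.78 ± 0.24 (SE, adjusted p = 0.0331 by limma)), a call lost without any of the 4 neonatal libraries (-0.94 to -0.63). In ventricles Trip10 had 5.09, 5.04, 6.63, 8.82 and 11.9 FPKM from E17 to PN90, and rose with a slope of 0.29 ± 0.05 (SE, adjusted p = 0.0104 by limma), which was 0.24 and not called without PN90. Fnbp1, the related FBP17, rose in cardiomyocytes (0.67 ± 0.13 (SE, adjusted p = 0.00227 by limma)) and was at 0.33 and not called with FPKM as deposited. Fcho2, which acts at the start of pit formation, fell (-0.49 ± 0.15 (SE, adjusted p = 0.0198 by limma)), a call lost without PN30 cardiomyocytes (-0.35) or either neonatal cardiomyocyte library (-0.56 and -0.39).

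Among the dynamins, Dnm1 differed between the cell types at both ages. Dnm1 (chr2:32163991-32208849), best known from nerve terminals, had 4.17 and 4.21 FPKM in later and 2.71 and 2.26 FPKM in neonatal cardiomyocytes, against 18.2 and 29.6 FPKM in later and 20.4 and 20.9 FPKM in neonatal fibroblasts. The 4 fibroblast libraries lay between 18.2 and 29.6 FPKM and the 4 cardiomyocyte libraries at 4.21 FPKM or less. Cardiomyocytes were lower, with log2 differences of -2.22 ± 0.21 (SE, adjusted p = 3.39e-05 by limma) at the later ages and -2.64 ± 0.21 (SE, adjusted p = 7.79e-05 by limma) as neonates. The cardiomyocyte change with age was 0.58 ± 0.21 (SE, adjusted p = 0.0426 by limma), lost without any of the 4 cardiomyocyte or 2 neonatal fibroblast libraries (0.50 to 0.68) and at 0.30 with FPKM as deposited. Dnm2, the form found in nearly all cells, had 30.9 and 28.5 FPKM in later and 24.6 and 27.4 FPKM in neonatal cardiomyocytes and 26.2 and 25.5 FPKM in later and 20.6 and 21.1 FPKM in neonatal fibroblasts, with no call in either comparison by age (0.19, adjusted p = 0.201, in cardiomyocytes and 0.29, adjusted p = 0.0843, in fibroblasts). Dnm3 stood low, at 1.15 and 1.42 FPKM in later and 0.691 and 0.643 FPKM in neonatal cardiomyocytes and 1.23 and 1.90 FPKM in later and 0.739 and 0.721 FPKM in neonatal fibroblasts. Later values were higher than neonatal ones in each cell type, without overlap, and the changes were 0.46 ± 0.15 (SE, adjusted p = 0.0305 by limma) and 0.55 ± 0.15 (SE, adjusted p = 0.0235 by limma). The cardiomyocyte call was lost without PN67 cardiomyocytes (0.39), either neonatal cardiomyocyte library (0.48 and 0.44) or either neonatal fibroblast library (0.45 each), and the fibroblast call without either neonatal fibroblast library (0.55 and 0.53). Near 1 FPKM the added 1 compresses the change, and with 0.1 added in its place the values were 0.85 and 0.97. The antisense gene Dnm3os lies within Dnm3, and the labels do not say whether fragments were assigned by strand, so reads of both cannot be told apart. As a share of the summed dynamin FPKM, Dnm1 was 11.5 and 12.3% in later and 9.7 and 7.5% in neonatal cardiomyocytes, and 40 and 52% in later and 48.9 and 48.9% in neonatal fibroblasts. In ventricles from E17 to PN90, Dnm2 had 22.3, 30.2, 39.4, 36 and 34.5 FPKM and no called slope, Dnm1 had 0.652, 0.433, 0.543, 0.35 and 0.271 FPKM and Dnm3 0.159, 0.39, 0.756, 1.69 and 1.07 FPKM.

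Among the phosphatases, kinases and Arf6, the steepest fall was that of Arf6 (chr12:70473137-70476966), a small GTPase that stimulates phosphoinositide synthesis at the plasma membrane. It had 13.1 and 10.3 FPKM in later and 39.4 and 44.5 FPKM in neonatal cardiomyocytes, against 51.7 and 56.2 FPKM in later and 59.7 and 57.9 FPKM in neonatal fibroblasts. The later cardiomyocyte libraries lay far below the other 6, of which the lowest was at 39.4 FPKM. The change was -1.76 ± 0.14 (SE, adjusted p = 3.38e-05 by limma) in cardiomyocytes and -0.12, adjusted p = 0.524, in fibroblasts, with a difference of -1.64 ± 0.20 (SE, adjusted p = 0.000389 by limma). Ventricles showed 22.2, 21.8, 23.01, 17.3 and 15.9 FPKM from E17 to PN90, with no called slope (-0.12, adjusted p = 0.107). Synj2, a synaptojanin that removes phosphates from the inositol ring during uncoating, had 18.9 and 27.2 FPKM in later and 8.49 and 9.53 FPKM in neonatal cardiomyocytes and 7.38 and 7.86 FPKM in later and 6.79 and 6.33 FPKM in neonatal fibroblasts. The later cardiomyocyte values stood above those of the other 6 cell libraries, with PN67 higher than PN30. The change was 1.24 ± 0.18 (SE, adjusted p = 0.000571 by limma) in cardiomyocytes and 0.19, adjusted p = 0.435, in fibroblasts, with a difference of 1.05 ± 0.26 (SE, adjusted p = 0.0094 by limma). In ventricles Synj2 rose at each stage from E17 to PN90, at 5.40, 7.86, 10.9, 18.4 and 25.1 FPKM, with a slope of 0.52 ± 0.04 (SE, adjusted p = 0.00436 by limma). Synj1 was called in fibroblasts (0.55 ± 0.14 (SE, adjusted p = 0.016 by limma), lost without either neonatal fibroblast library, at 0.53 and 0.54). Gak, the uncoating kinase, was called lower in cardiomyocytes (-0.53 ± 0.19 (SE, adjusted p = 0.0414 by limma), lost without PN30 or PN67 cardiomyocytes, neonatal cardiomyocyte library 2 or either neonatal fibroblast library, at -0.54 to -0.30). Aak1, which phosphorylates the mu subunit of AP-2, had log2 changes of 0.11 in cardiomyocytes and -0.24 in fibroblasts and was not called in either.

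Set against later fibroblasts, later cardiomyocytes had 9 of the 37 genes higher and 20 lower, beside 38.5% and 39.3% of all tested genes, and a median log2 difference of -0.43, beside -0.04 over all tested genes. Pacsin3 (4.07 ± 0.24 (SE, adjusted p = 2.23e-06 by limma)), Ap1b1 (2.12) and Epn1 (1.90) led those higher in cardiomyocytes, ahead of Synj2 (1.46), Pacsin2 (1.30), Epn2 (0.76), Ap2s1 (0.72), Ap1m1 (0.67, and 0.43 without PN60 fibroblasts) and Fnbp1 (0.38, not called without PN30 cardiomyocytes, at 0.35, or PN28 fibroblasts, at 0.27). Dab2 (-2.34 ± 0.18 (SE, adjusted p = 8.92e-06 by limma)), Picalm (-2.27), Dnm1 (-2.22), Arf6 (-2.12) and Sh3gl1 (-2.03) led those lower. The values of these genes in each library stand above, and for these 5 genes the later cardiomyocytes did not overlap with the later fibroblasts. Among the weaker calls, Eps15 (-0.36) and Synj1 (-0.47), were lost without any cardiomyocyte library or PN60 fibroblasts for Eps15 (-0.40 to -0.29) and without PN30 cardiomyocytes for Synj1 (-0.34). RNA of cardiomyocytes and fibroblasts was extracted with different kits per the labels, which cannot be told apart from cell type. The adaptor Picalm was at -1.39 (adjusted p = 9.18e-05) and the F-BAR gene Trip10 at -0.37 (adjusted p = 0.193), against -1.46 for its named transcript, once unnamed transcripts were added. Fewer genes were called between neonatal cells. Neonatal cardiomyocytes had 3 genes higher and 9 lower than neonatal fibroblasts, beside 21.4% and 19.1% of all tested genes. Pacsin3, Ap1b1 (0.73) and Epn2 (0.46) were higher, and Dnm1, Ap3s1, Trip10, Sh3gl1, Ap2a2 (-0.63), Snx9 (-0.63), Arf6 (-0.48), Ap1g1 (-0.48) and Ap3d1 (-0.47) lower. The call was lost without any cardiomyocyte or neonatal fibroblast library for Epn2 (0.36 to 0.55) and Ap3d1 (-0.54 to -0.40), without any neonatal library for Ap2a2 (-0.71 to -0.55), Arf6 (-0.57 to -0.40) and Ap1g1 (-0.54 to -0.42), and without either neonatal cardiomyocyte library or neonatal fibroblast library 1 for Snx9 (-0.74 to -0.39). The higher count ran from 1 without neonatal cardiomyocyte library 1 to 6 without either later fibroblast library, and the lower count was 2 and 3 without neonatal cardiomyocyte libraries 1 and 2, and 3 and 4 without neonatal fibroblast libraries 1 and 2. The comparisons by cell type and those by age share their libraries.

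In whole ventricles, which went through ribosomal RNA depletion and another library kit than the cells and were scaled apart from them, 8 of 35 genes rose with stage and 2 fell, beside 20.3% and 14.5% of all tested genes. The risers were Pacsin3, Synj2, Pacsin2, Epn1, Trip10, Cltb, Ap1b1 and Eps15, and the fallers Ap2b1 and Ap2s1. The slope is per stage in the order E17, PN1, PN10, PN28 and PN90, and the median over the 35 genes was 0.05, beside 0.01 over all tested genes. Pacsin3, Synj2, Pacsin2, Epn1 and Ap1b1 were called higher both in later cardiomyocytes and across ventricle stages, which is 14.3% of the 35, beside 17.1% of the 10911 genes tested in both. Of the 35 genes 0 were called lower in both, beside 9.52% of all, and 0 in opposite directions, beside 1.34%. Genes called lower in later cardiomyocytes thus had no called fall across ventricle stages. The cell and ventricle libraries are separate. Pacsin3, Synj2 and Pacsin2 kept their calls without any 1 of the 5 libraries. The higher count was 4 without E17 and 5 without PN90, and the lower count 0 without E17, PN1, PN28 or PN90. With FPKM as deposited it was 5 higher and 8 lower, where the higher share of all calls is 26.8%, against 58.3% here. Cardiomyocyte markers summed to 9169, 14610, 16250, 24510 and 27620 FPKM and macrophage and leukocyte markers to 20.3, 21.2, 39.5, 136 and 103 FPKM over the same stages, for 6 of 8 and 6 of 6 markers. Fibroblast markers (8 of 8) summed to 293, 377, 724, 761 and 674 FPKM, smooth muscle and pericyte markers (5 of 5) to 76.3, 138, 371, 350 and 324 FPKM, and endothelial markers (6 of 6) to 113, 174, 272, 193 and 168 FPKM. Epicardial markers (4 of 4) summed to 37.8, 14.7, 7.29, 4.27 and 4.95 FPKM and erythroid markers (3 of 5) to 4757, 181, 233, 197 and 182 FPKM, each highest at E17. Their part in the slopes was not tested.

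**Figure D3:**
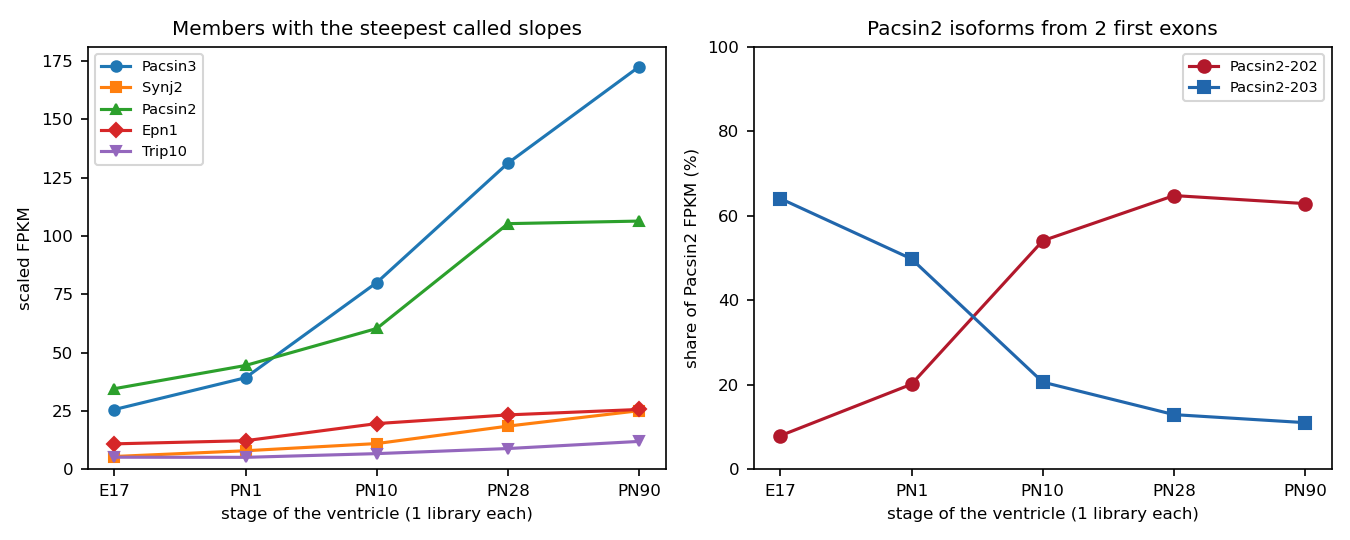
Left, scaled FPKM of the 5 clathrin pathway genes with the steepest called slopes in 5 ventricle libraries, 1 per stage, with stages in order and not to scale in days. Right, the share of Pacsin2 FPKM held by the isoforms Pacsin2-202 and Pacsin2-203 in the same libraries, which cross between PN1 and PN10, with Pacsin2-202 reaching 62.9% at PN90 and Pacsin2-203 falling to 11.0%.

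Some isoforms of these genes were called with age in cardiomyocytes and none in fibroblasts, counts to be read beside the shares of all tested isoforms. Of 51 isoforms of 17 member genes that could be tested in cells, 11 changed their share of the gene's FPKM with age in cardiomyocytes, 5 up and 6 down in 6 genes, against 17.6% of all tested isoforms. In fibroblasts 0 did, against 3.91%. A call asks of limma an adjusted p under 0.05 together with a share change of 10 percentage points or more. At an unadjusted p under 0.05, 10 fibroblast isoforms passed, 3 of them with that share change, and 1 passed the adjusted p with no share change asked. No other tool was run. The difference of the changes was called for 5 isoforms (background 13.9%) of Ap2a1, Pacsin2 and Fnbp1, later cardiomyocytes differed from later fibroblasts in 19 isoforms of 12 genes (background 27.5%), and the ventricle slope was called for 1 of 56 (background 1.07%). Genes with a LOWDATA transcript, such as Clta, were outside this test. With those transcripts used, 17 of 74 isoforms were called in cardiomyocytes and 0 in fibroblasts.

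Pacsin2 changed its shares of isoforms with different first exons. Pacsin2-202 held 33.3 and 32.9% of Pacsin2 FPKM in later and 2.2 and 2.2% in neonatal cardiomyocytes, and 1.8 and 1.1% in later and 0.9 and 0.8% in neonatal fibroblasts. It held 2.2% or less in the other 6 cell libraries. Its share changed by 30.9 percentage points (adjusted p = 3.27e-05 by limma) in cardiomyocytes, against 0.6 percentage points (adjusted p = 0.2 by limma) in fibroblasts. The difference of the changes was 30.3 percentage points (adjusted p = 0.000453 by limma), and later cardiomyocytes differed from later fibroblasts by 31.6 percentage points (adjusted p = 4.05e-06 by limma). Pacsin2-203 held 26.4 and 27.2% in later and 53.7 and 55.1% in neonatal cardiomyocytes, and 55.3 and 56.3% in later and 59.4 and 59.6% in neonatal fibroblasts. It changed by -27.6 percentage points (adjusted p = 0.000116 by limma) in cardiomyocytes, by -23.9 percentage points (adjusted p = 0.00179 by limma) as the difference from the fibroblast change, with both later values below those of the other 6 libraries. The third isoform, Pacsin2-201, stood between 39.6% and 44.1% in all 8 libraries. Shares are relative to a gene total that rose in later cardiomyocytes, so the lower share of Pacsin2-203 does not mean a lower level there. In ventricles Pacsin2-202 made up 7.9, 20.1, 54.1, 64.8 and 62.9% from E17 to PN90, and Pacsin2-203 64.1, 49.8, 20.6, 12.9 and 11%. The order of the 2 isoforms reversed between PN1 and PN10. The slope was called for Pacsin2-203 (-53.1 percentage points (adjusted p = 0.0375 by limma), from E17 to PN90) and missed the threshold for Pacsin2-202 (54.9 percentage points (adjusted p = 0.0513 by limma)). The Pacsin2-203 call was lost without E17 (-38.8 points), PN1 or PN28 (-53.1 each) or PN90 (-51.2).

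The gene lies on the minus strand. In the deposited mm9 coordinates Pacsin2-203 spans chr15:83206037-83295036 and Pacsin2-202 spans chr15:83206037-83263280, so they share the last base and differ in where transcription begins. Pacsin2-201 spans chr15:83206552-83295000 and so begins close to Pacsin2-203. RefSeq has a start at the first base of Pacsin2-203 and another 35 bases from that of Pacsin2-202. The 250 bases before each of these RefSeq starts are printed because the isoforms that moved apart begin there, 5′ to 3′ on the minus strand of GRCm38.p6. The upstream one is chr15:83464607-83464856 and the downstream one chr15:83432851-83433100. A further RefSeq start of the gene lies between them and is not printed. It stands 15065 bases from the first base of Pacsin2-202 and 16726 from that of Pacsin2-203. Capitals mark 2 motifs searched on both strands, the E-box (CANNTG) and the GC box (GGGCGG).

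Before the Pacsin2-203 start: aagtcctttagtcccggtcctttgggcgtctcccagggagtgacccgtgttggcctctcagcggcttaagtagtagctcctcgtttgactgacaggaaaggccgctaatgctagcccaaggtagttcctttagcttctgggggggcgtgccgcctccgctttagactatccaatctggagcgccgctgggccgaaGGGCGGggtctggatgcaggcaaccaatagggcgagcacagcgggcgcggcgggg
Before the Pacsin2-202 start: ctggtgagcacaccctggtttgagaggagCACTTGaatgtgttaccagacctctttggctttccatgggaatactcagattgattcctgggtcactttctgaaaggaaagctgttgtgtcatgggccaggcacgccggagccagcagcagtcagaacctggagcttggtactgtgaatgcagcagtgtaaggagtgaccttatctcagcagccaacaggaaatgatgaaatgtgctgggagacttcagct

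The Pacsin2-203 stretch is 62.0% G and C with 18 CpG dinucleotides, 1 GC box and 0 E-boxes. The Pacsin2-202 stretch is 50.8% G and C with 2 CpG dinucleotides, 1 E-box and 0 GC boxes. Over the same window before 32851 RefSeq starts, 66.2% held an E-box and 32.7% a GC box, with medians of 52.4% G and C and 6 CpG. Also searched and not in capitals were the CCAAT box (CCAAT), with 2 matches before the Pacsin2-203 start and 0 before the Pacsin2-202 start, and the GATA motif (AGATAA), with 0 and 1, held by 33.8% and 10.0% of the same windows. A match is a description of these letters and says nothing of binding.

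The alpha subunit of AP-2 also changed in isoform use in cardiomyocytes. Ap2a1-203, which holds the 66-nucleotide exon, made up 68.2 and 63.9% of Ap2a1 FPKM in later and 32.5 and 27.8% in neonatal cardiomyocytes, and 3 and 0.9% in later and 6.8 and 7.1% in neonatal fibroblasts. An isoform without it, Ap2a1-202, made up 31.2 and 35.9% in later and 66.3 and 71.3% in neonatal cardiomyocytes, and 92.3 and 93% in later and 91.6 and 87.8% in neonatal fibroblasts. The later cardiomyocyte values overlapped with no other cell library. Ap2a1-203 changed by 35.9 percentage points (adjusted p = 0.000349 by limma) and Ap2a1-202 by -35.2 percentage points (adjusted p = 0.000398 by limma) in cardiomyocytes. In fibroblasts Ap2a1-203 changed by -5.1 percentage points (adjusted p = 0.0226 by limma), and the difference of the changes was 41 percentage points (adjusted p = 0.0007 by limma) for Ap2a1-203 and -38.1 percentage points (adjusted p = 0.00191 by limma) for Ap2a1-202. Later cardiomyocytes and later fibroblasts differed by 64.1 percentage points (adjusted p = 1.73e-06 by limma) in Ap2a1-203, the largest of the called isoform differences. From E17 to PN90 ventricles, Ap2a1-203 made up 39, 49.6, 49, 52.5 and 52.5%, and Ap2a1-202 5.3, 0, 0, 0 and 0%. FPKM without the exon was thus given there to another isoform that skips it, Ap2a1-204, from PN1 on.

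Inclusion of the Ap2a1 exon, over the transcripts that span it, was 68.8 and 64.1% in later and 33.7 and 27.8% in neonatal cardiomyocytes, and 3 and 0.9% in later and 6.8 and 7.1% in neonatal fibroblasts. From E17 to PN90 ventricles it was 41.7, 49.6, 52.2, 65.3 and 52.5%, highest at PN28. The 42-nucleotide exon of the beta subunit Ap2b1 stood at 43.9 and 40.4% in later and 29.4 and 21% in neonatal cardiomyocytes, and at 19.1 and 20.2% in later and 11.9 and 13.8% in neonatal fibroblasts. Values at the later ages were higher in each cell type. The isoform that holds it, Ap2b1-201, changed by 16.9 percentage points (adjusted p = 0.00679 by limma) in cardiomyocytes. Ap2b1-202, which skips it, changed by -16.8 percentage points (adjusted p = 0.00685 by limma) there. In fibroblasts Ap2b1-201 changed by 6.8 percentage points (adjusted p = 0.119 by limma). The difference of the changes was not called, at 10.1 percentage points (adjusted p = 0.353 by limma) for Ap2b1-201 and -10.1 percentage points (adjusted p = 0.34 by limma) for Ap2b1-202. Ap2b1-201 differed between later cardiomyocytes and later fibroblasts by 22.5 percentage points (adjusted p = 0.000782 by limma) and Ap2b1-202 by -22.3 percentage points (adjusted p = 0.000825 by limma). In ventricles the exon stood at 17.2, 21.3, 10.9, 18.8 and 20.4%, with no steady order over the stages. As a share of all Ap2b1 FPKM, Ap2b1-201 made up 7.4, 9.2, 5.6, 8.9 and 9.6% there, and Ap2b1-202 35.6, 34.1, 45.8, 38.3 and 37.4%.

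The 36-nucleotide exon of Clta was included at 29.9 and 27.3% in later and 3.3 and 2.3% in neonatal cardiomyocytes, and at 0.3 and 0.5% in later and 0.5 and 0.6% in neonatal fibroblasts. It was at 0.6% or less in each fibroblast library, and the ventricle series from E17 to PN90 was 6, 10.2, 16.1, 22.2 and 21.5%, higher at each stage up to PN28. The isoform that holds it, Clta-203, made up 28.7 and 25.5% of Clta FPKM in later and 2.5 and 1.5% in neonatal cardiomyocytes, a change of 25.1 percentage points (adjusted p = 0.000156 by limma) when LOWDATA transcripts were used, a choice made after seeing the data. Among the transcripts that skip the exon is the LOWDATA one, Clta-206, whose share changed by -31.8 percentage points (adjusted p = 0.000204 by limma) in the same fit.

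The 15-nucleotide exon of Fnbp1 was included more in later than in neonatal cardiomyocytes. Inclusion was 74.5 and 69.2% in later and 37.8 and 35.3% in neonatal cardiomyocytes, and 3.1 and 10.1% in later and 5.9 and 9.6% in neonatal fibroblasts, with no overlap between cell types. Ventricles stood at 50.8, 56.7, 49.3, 72.6 and 52% from E17 to PN90, with PN28 apart from the rest. Fnbp1-208, which holds the exon, made up 59.7 and 52.5% of Fnbp1 FPKM in later and 34.3 and 32.7% in neonatal cardiomyocytes, and 2.4 and 9.2% in later and 5.4 and 9% in neonatal fibroblasts. Its change in cardiomyocytes was 22.6 percentage points (adjusted p = 0.0279 by limma), lost without any of the 4 cardiomyocyte libraries (19 to 26.2 points), and its difference between later cells 50.3 percentage points (adjusted p = 8.28e-05 by limma). The difference of its changes was 24 percentage points (adjusted p = 0.0749 by limma) and was not called. Fnbp1-210, which skips the exon, was listed at 0% in both later and at 18.5 and 23.9% in neonatal cardiomyocytes, and 22.6 and 36.2% in later and 43.8 and 48.6% in neonatal fibroblasts, a change of -21.2 percentage points (adjusted p = 0.00014 by limma) in cardiomyocytes. Its difference between later cells was -29.4 percentage points (adjusted p = 1.85e-05 by limma). In fibroblasts Fnbp1-210 changed by -16.8 percentage points (adjusted p = 0.0804 by limma), which was not called. The difference of its changes was -4.4 percentage points (adjusted p = 0.00448 by limma), short of the 10 points asked of a call. Fnbp1-204 made up 6.6 and 8.9% in later and 26.5 and 23.3% in neonatal cardiomyocytes, and 28.7 and 25.9% in later and 28.9 and 19% in neonatal fibroblasts. It changed by -17.1 percentage points (adjusted p = 0.00182 by limma) in cardiomyocytes, with a difference of the changes of -20.5 percentage points (adjusted p = 0.00853 by limma) and a difference between later cells of -19.6 percentage points (adjusted p = 0.00054 by limma). The isoform shares were not the same in ventricles as in cardiomyocytes. From E17 to PN90, Fnbp1-208 made up 4.8, 4.9, 8.2, 10 and 7.9% there and Fnbp1-210 0.4, 0, 0, 0 and 0%. Fnbp1-204 made up 22.8, 15.9, 22.1, 12.6 and 15.9%. Fnbp1-203, Fnbp1-206 and Fnbp1-211 also hold the exon.

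Over the 19 measured short exons the median inclusion change was 3.7 points in cardiomyocytes and 0 points in fibroblasts. Short exons of other genes were not measured, so the shares over all genes that would stand beside these counts are not known. The 4 that moved by 10 points or more in cardiomyocytes, those of Clta, Ap2a1, Ap2b1 and Fnbp1, were all included more at the later ages. The same 4 differed by 10 points or more between later cardiomyocytes and later fibroblasts, all higher in cardiomyocytes, in a comparison that shares the later cardiomyocyte libraries. In fibroblasts 1 moved by that much, a 12-nucleotide exon of Dnm2 at chr9:21490658-21490669 in GRCm38, at 41.7 and 35.6% in later and 27.3 and 28.6% in neonatal fibroblasts (10.7 points). A 30-nucleotide exon of Dnm2 was included at 10.6 and 8.5% in later and 3.5 and 2.3% in neonatal cardiomyocytes, and at 0 and 0.1% in later and 0.3 and 0.8% in neonatal fibroblasts. Cufflinks divides fragments among overlapping transcripts by an estimate, so a 15-nucleotide exon rests on few fragments. Of the remaining called isoforms, Synj2-210 made up 14.3 and 8.7% of its gene in later and 28.5 and 18.8% in neonatal cardiomyocytes, a change of -12.1 percentage points (adjusted p = 0.0147 by limma) that was lost without PN67 cardiomyocytes (-9.3 points) or neonatal cardiomyocyte library 1 (-7.2 points). Eps15-202 changed by 11.8 percentage points (adjusted p = 0.0142 by limma), lost without PN67 cardiomyocytes (10.5 points) or neonatal cardiomyocyte library 2 (10.3 points). Pacsin3-209, a transcript of 671 nucleotides, made up 19.4 and 17.1% in later cardiomyocytes and 0% in both later fibroblast libraries, a difference of 18.2 percentage points (adjusted p = 0.00364 by limma).

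**Figure D4:**
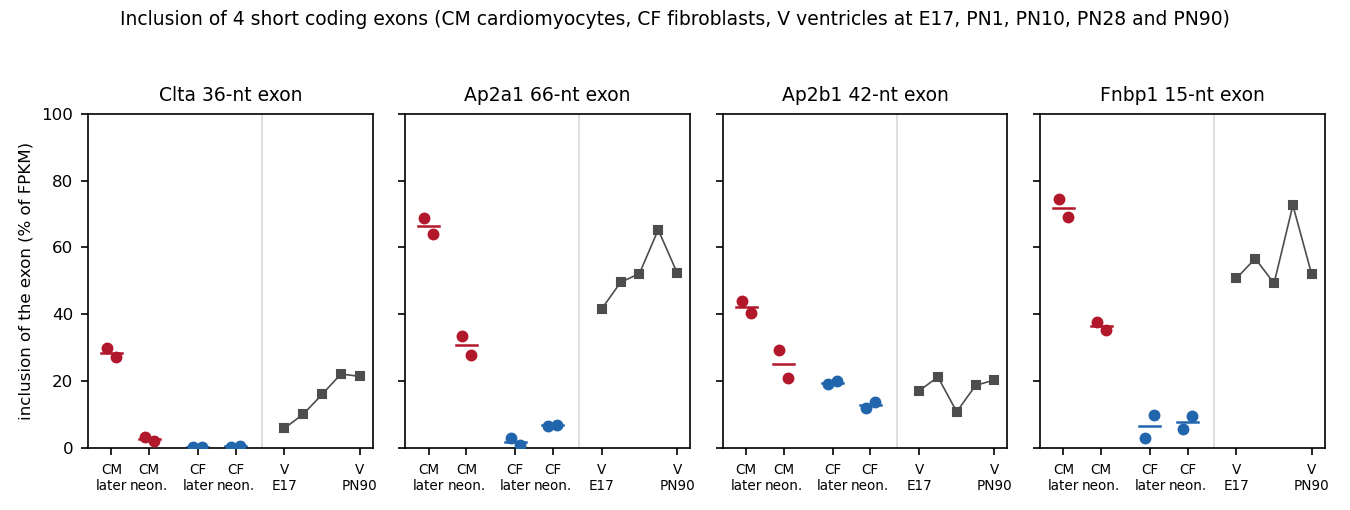
Inclusion, as a percentage of the FPKM of transcripts that span the exon, of 4 short coding exons in later and neonatal cardiomyocytes (CM), later and neonatal fibroblasts (CF) and 5 ventricle stages (V, 1 library each). Circles are libraries, lines the mean of 2, and squares ventricles. Each exon is highest in later cardiomyocytes among the cell libraries, at 29.9 and 27.3% for Clta, 68.8 and 64.1% for Ap2a1, 43.9 and 40.4% for Ap2b1 and 74.5 and 69.2% for Fnbp1.

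Other genes of the pathway, from a list of 59 of which 51 were tested in cells and 47 in ventricles, were called higher for 13 and lower for 18 in cardiomyocytes, for 5 and 8 in fibroblasts, and for 5 and 6 along the ventricle slope, to be read against the same shares of all tested genes as above. Epn3, an epsin, had 34.03 and 25.02 FPKM in later and 2.59 and 2.66 FPKM in neonatal cardiomyocytes, a log2 change of 3.06 ± 0.16 (SE), next to Tom1l2 (1.94 ± 0.12) and the AP-3 subunit Ap3s2 (1.25 ± 0.16). Bin1, amphiphysin 2, a BAR protein of muscle membrane tubules, had 1.82 and 1.48 FPKM in later and 11.5 and 16.04 FPKM in neonatal cardiomyocytes, a change of -2.46 ± 0.18, next to endophilin A3, Sh3gl3 (-2.29 ± 0.15), and Clba1 (-2.26 ± 0.20). Limma adjusted p-values of these 6 were at most 0.000265. In fibroblasts Aftph (1.53 ± 0.46), Tom1 (1.12 ± 0.14) and Clba1 (0.80 ± 0.20) rose most and Sh3gl3 (-1.32 ± 0.15), the AP-1 subunit Ap1s1 (-1.14 ± 0.20) and Fnbp1l (-0.95 ± 0.17) fell most. Aftph had 66.3 and 19.7 FPKM in later fibroblasts, with PN28 far above PN60, and an adjusted p of 0.0308. Along ventricle stages Tom1l2 (0.44 ± 0.06 per stage), Ap1s2 (0.42 ± 0.05) and Epn3 (0.39 ± 0.09) rose most, and Snap91 (-0.98 ± 0.10), the neuronal relative of Picalm, with Sh3gl3 (-0.41 ± 0.07) and Ap1s1 (-0.33 ± 0.07), fell most. Snap91 had 33.4, 22.02, 6.16, 2.51 and 1.95 FPKM from E17 to PN90.

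Some receptors taken up by this route changed as well. The insulin receptor Insr had 25.1 and 24.8 FPKM in later and 8.17 and 7.25 FPKM in neonatal cardiomyocytes, a change of 1.58 ± 0.17, and 1.55 and 2.39 FPKM in later and 3.73 and 4.23 FPKM in neonatal fibroblasts, a change of -0.76 ± 0.17, and it rose along ventricle stages (0.22 ± 0.06 per stage). The difference of the 2 changes was 2.33 ± 0.24. The scavenger receptor Lrp1 rose in cardiomyocytes (1.505 ± 0.24) and fibroblasts (1.47 ± 0.24). The insulin-like growth factor receptor Igf1r fell in cardiomyocytes (-1.47 ± 0.16) and along ventricle stages (-0.40 ± 0.06 per stage). Egfr, the epidermal growth factor receptor, rose in fibroblasts, to 32.8 and 37.5 FPKM at the later ages against 12.8 and 11.4 FPKM in neonates (1.46 ± 0.14). These values are limma log2 changes ± SE with adjusted p-values of at most 0.0265.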

How the data were processed

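RNA of wild-type FvB ventricles (5 libraries), cardiomyocytes (4) and cardiac fibroblasts (4) was sequenced. Per the labels' protocols, TruSeq kits were used for cells, and ribosomal RNA depletion with ScriptSeq v2 kits for ventricles. Reads were aligned to mm9 with TopHat2 2.0.5 and quantified with Cufflinks 2.1.1, per the submitters' processing notes. The deposited files give FPKM per transcript with a confidence interval and a status, and a coverage signal that was used only as a sign of depth, per the file headers. The sources used here name no annotation release.

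Of 94696 transcripts, 82379 (87.0%) matched GENCODE M21 by identifier and were named from it. FPKM of transcripts of 200 nucleotides or more were summed per gene and scaled by the median of ratios, separately for the 8 cell and the 5 ventricle libraries. Genes holding a transcript of status HIDATA or FAIL were left out (90 in cells, 64 in ventricles, no member). LOWDATA transcripts were summed, a choice made after the files were seen because most Clta FPKM sits in 1 of them. Leaving them out is reported as an alternative, and equals the planned one of summing only transcripts of status OK.

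Tests were two-sided limma fits (3.58.1, R 4.3.3, intensity trend) on log2(FPKM + 1), a scale that understates changes of low genes, over genes with a mean of at least 1 FPKM, with Benjamini-Hochberg adjustment over all of them and a call at an adjusted p below 0.05. All 8 cell libraries entered 1 fit with a mean for each age and cell type, and the 5 ventricles a slope on stage order. Isoform use was tested on log2 of isoform over other isoforms (0.5 FPKM added to each) in genes with a mean of at least 5 FPKM. The fits were tested on simulated data. Neonatal libraries of a cell type were checked for identity, and 0 of 21739 transcripts in cardiomyocytes and 1 of 21844 in fibroblasts had the same FPKM.

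The 38 members, the list of other pathway genes and the markers were chosen with earlier results of these data known. Per-library values are given for the clathrin chains, AP-2 subunits and dynamins, except that Ap2a1, Ap2a2 and Ap2m1 have only a range in ventricles. At least for the libraries compared, they are given for the 5 called genes with the largest change in each comparison. The same holds for the 10 called isoforms with the largest share change. Other pathway genes are named from the 3 largest called changes each way, some with per-library values. Adding unnamed transcripts by position (both ends within 500 nucleotides of a named gene span), and using LOWDATA transcripts as isoforms, were alternatives chosen after seeing the data.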

Additional observations from a re-analysis of the deposited data

Results flagged for a closer look

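The change with age differed between cardiomyocytes and fibroblasts for 19 of the 37 genes by the test of the difference itself (cardiomyocyte change minus fibroblast change, log2 of FPKM + 1, limma adjusted p below 0.05). The difference was 2.88 for Pacsin3, 1.56 for Epn1, 1.42 for Pacsin2, 1.39 for Ap1b1, 1.05 for Synj2 and 0.53 for Fnbp1, all higher in cardiomyocytes. It was -2.53 for Picalm, -2.09 for Dab2, -1.68 for Cltb, -1.64 for Arf6, -1.42 for Itsn2, -1.4 for Cltc, -1.26 for Sh3gl1, -1.21 for Snx9, -1.01 for Gak, -0.9 for Ap3s1, -0.77 for Ap2b1, -0.64 for Clta and -0.57 for Ap1g1, all lower in cardiomyocytes. The Clta difference turned round to 0.98 (limma adjusted p = 0.00762) without LOWDATA transcripts. The fibroblast change that enters the Picalm difference was -0.01 and not called with unnamed transcripts added, against 1.32 here.

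The share of 5 isoforms changed differently with age in the cell types, by the same kind of test. The share change in cardiomyocytes minus that in fibroblasts was 41 percentage points for Ap2a1-203, 30.3 for Pacsin2-202, -38.1 for Ap2a1-202, -23.9 for Pacsin2-203 and -20.5 for Fnbp1-204.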

How the results depend on the processing

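Of 101 called gene changes, 55 kept direction and call under every alternative, as did 29 of 36 called isoform changes. Of 3878 alternative values of single genes, 205 lost a call, 104 gained one and 12 reversed, and of 499 for isoforms 19 lost a call. Causes of these shifts were not tested.

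Without one library at a time, the genes called higher and lower numbered 7 to 13 and 8 to 13 in cardiomyocytes, 3 to 10 and 0 to 4 in fibroblasts, 5 to 9 and 9 to 14 for the difference, 7 to 9 and 16 to 20 between later cells, 1 to 6 and 2 to 12 between neonatal cells, and 4 to 12 and 0 to 3 in ventricles. Called isoforms numbered 8 to 11, 0 to 2, 5 to 7, 18 to 23 and 0 to 4 for cardiomyocytes, fibroblasts, the difference, later cells and ventricles.

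With FPKM as deposited, 6 genes were higher in cardiomyocytes, 3 higher and 9 lower in fibroblasts, and 5 higher and 8 lower in ventricles, and Ap2m1 in fibroblasts was -0.34. With mitochondrial genes removed and equal sums, 6 were higher in cardiomyocytes, 3 higher and 9 lower in fibroblasts, 14 lower between neonatal cells, and 4 higher and 7 lower in ventricles, with Ap3b1 at -0.42 and Ap2m1 at -0.37 in cardiomyocytes and Ap2m1 at -0.34 in fibroblasts. The median of all genes then shifted to -0.28 in cardiomyocytes, -0.30 in fibroblasts and -0.08 per stage, and the share of calls that are higher to 36.5%, 24.1% and 30.5%, and to 40.9%, against 52.8%, between neonatal cells.

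Leaving LOWDATA transcripts out, and likewise summing only those of status OK, put Clta at 1.0 in cardiomyocytes and at 0.98 for the difference and between later cells. Unnamed transcripts added by position put Trip10 at 0.95 in cardiomyocytes and Picalm at -0.01 in fibroblasts, with 2 genes lower in fibroblasts and 6 higher between neonatal cells. The count lower in fibroblasts was 0 with no filter and 2 with a pseudocount of 0.1. Ventricles had 1 lower with no filter, and 4 higher and 0 lower on log2 days since conception.

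Called isoforms were 6 in cardiomyocytes and 8 between later cells at 20 points. With no share change asked they were 17 in cardiomyocytes, 1 in fibroblasts and 9 for the difference. With LOWDATA transcripts used they were 17 and 9 in cardiomyocytes and for the difference, and with unnamed transcripts added as well 23, 2, 13 and 31 in cardiomyocytes, fibroblasts, the difference and later cells. Keeping genes with a LOWDATA transcript gave 11 for the difference, and an offset of 0.1 gave 0 in ventricles.

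No paired analysis was possible because the labels give no shared replicate numbers across groups. Fragment totals are not given in the files, so limits set by depth could not be computed.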

Other observations

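Further genes of the pathway differed between the cell types. Numbl, a Numb-like endocytic adaptor, had 2.52 and 3.04 FPKM in later cardiomyocytes, against 39.8 and 69.9 FPKM in later fibroblasts (log2 difference -3.83 ± 0.28 SE, limma adjusted p = 8.08e-06), and 3.66 and 4.01 FPKM in neonatal cardiomyocytes, against 36.2 and 23.9 FPKM in neonatal fibroblasts (-2.65 ± 0.28, limma adjusted p = 0.000309). All 4 cardiomyocyte libraries lay below the 4 fibroblast libraries. Bmp2k, a kinase related to Aak1, had 2.16 and 2.12 FPKM in later and 8.21 and 8.12 FPKM in neonatal cardiomyocytes, and 18.1 and 19.5 FPKM in later and 13.5 and 13.4 FPKM in neonatal fibroblasts, and its change with age differed between the cell types by -1.998 ± 0.17 (SE, limma adjusted p = 7.58e-05). Sh3glb2, an endophilin B, was higher in later cardiomyocytes (41.1 and 37.6 FPKM) than in later fibroblasts (3.89 and 8.45 FPKM), by 2.57 ± 0.28 (SE, limma adjusted p = 7.14e-05).

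Synj2 made up 63.5 and 68% of the summed FPKM of Synj1 and Synj2 in later and 45.5 and 47.4% in neonatal cardiomyocytes, and 29.1 and 33.5% in later and 37.9 and 36.2% in neonatal fibroblasts, and 64.6, 66.6, 61.6, 76.2 and 82.2% in ventricles from E17 to PN90. The later values lay above the neonatal ones in cardiomyocytes and below them in fibroblasts, which was not tested.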
